A study of Mus musculus with 8 samples.

Results

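The genes described here encode the enzymes and glucose carriers of central carbon metabolism: glycolysis, the pentose phosphate pathway, the pyruvate dehydrogenase step and the tricarboxylic acid (TCA) cycle. They were chosen by name, with earlier results of these data known. A gene was kept where a probeset of the array was assigned to that gene alone. Of the 47 genes named, 44 had such a probeset, among 19938 genes and 21789 probesets of that kind in the table. Gpi1, Eno1 and G6pdx had none and were not analysed here.

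The 8 arrays hold RNA of mouse progenitors harvested after 4 days on OP9-DL4, a bone marrow stromal line that displays the Notch ligand DL4. Lymphoid primed multipotent progenitors (negative for lineage markers, positive for Sca and kit, high for Flt3) were seeded with Flt3L at 5 ng/ml and IL1, as the labels spell it, at 1 ng/ml. CD45.2+ cells were then sorted. The T lineage group (called T cells here) held 2 wildtype (Tcf7+/+) replicates of Thy1+CD25+ cells. The Tcf1-deficient lineage-negative (LN) group held Mac1-Gr1-Thy1-CD25- cells of 3 Tcf7-/- mice, and the wildtype LN group held cells of the same gate from 3 Tcf7+/+ mice. Tcf7 encodes Tcf1, a transcription factor of early T lineage cells. Per the labels, deficient progenitors gave no T cells, so T cells exist for the wildtype genotype only. The labels give no age, describe the line as kept on a mixed background after about 6 backcross generations, and do not say whether the T replicates came from the mice of the LN samples. Where separate cultures are not stated, p-values measure the spread between these samples, which may be technical.

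Glycolysis breaks glucose down to pyruvate, with phosphofructokinase as its main control step, and the pentose phosphate pathway branches off to make NADPH and ribose for nucleotides. Pyruvate is either turned into lactate or passed through pyruvate dehydrogenase into the TCA cycle, and the PDH kinases shut that entry. Dividing lymphocyte precursors are known for heavy use of glucose, and several steps are carried by isozymes encoded by separate genes.

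All levels below are log2 signals as the authors deposited them, and all differences are in log2 units. A gene is said to have risen or fallen where the limma adjusted p was under 0.05 over all 21789 probesets. Across probesets, r lay between 0.995 and 0.997 for arrays of the same group. It was 0.995 to 0.997 for the LN arrays of the 2 genotypes and 0.973 to 0.983 for T with LN arrays. All 10 T lineage markers measured, among them Cd3g and the gate antigens Thy1 and Il2ra (CD25), rose in T cells over wildtype LN cells. Their summed linear signal was 18486 and 12842 in T arrays 1 and 2, against 1358 to 1495 in deficient LN arrays and 1403 to 1539 in wildtype LN arrays. Of 13 dendritic cell markers 11 fell in T cells, with a summed signal of 1735 and 1810 in T arrays, against 11253 to 13151 in deficient and 12778 to 15354 in wildtype LN arrays. Of 15 granulocyte and monocyte markers 10 fell, with a summed signal of 3840 and 5714, against 11622 to 12622 and 11537 to 17180. Of 7 B lineage markers 2 fell, and none of 3 erythroid markers passed. Among all probesets 7.66% were called higher and 10.4% lower in T than wildtype LN cells. T array 2 had less of the T lineage markers and more of the myeloid ones than T array 1. This difference in cell content lies along every comparison of T with LN cells below, and its part in them was not tested. In bulk samples, fewer cells of a type and less RNA per cell cannot be told apart. Proliferation markers summed to 17447 and 17740 in T arrays, against 17174 to 18284 in deficient and 17642 to 18159 in wildtype LN arrays, and 1 of 7, Mki67, fell in T cells. Stromal markers, a check for OP9 carryover, summed to 1212 and 1182 in T arrays 1 and 2, against 1297 to 1566 and 1241 to 1299. Of 10 stromal markers 1 fell in T cells relative to wildtype LN cells. Relative to deficient LN cells 2 fell, where 8.16% of all probesets were called lower.

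T cells carried a mixed change of these genes. Against wildtype LN cells 13 of 44 members rose, 7 fell and 24 did not pass. The largest rises were those of Fbp1, which encodes the gluconeogenic fructose bisphosphatase, and Pfkfb3, which makes the activator of phosphofructokinase. The largest falls were those of Idh1, the cytosolic NADP-dependent isocitrate dehydrogenase, and Taldo1, the transaldolase of the pentose phosphate pathway. Fbp1 was the 1 member changed by at least 2-fold, where 0.665% of all probesets were called and at least 2-fold higher.

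In this comparison 29.5% of the members rose and 15.9% fell, where 7.66% of all probesets were called higher and 10.4% lower. In 23 members both T arrays lay above all wildtype LN arrays and in 11 below them, where 28.0% and 19.8% of all probesets did. The members' probesets were bright, with 38 of 44 above the median of the table, and without the dimmest 40% of probesets 15 of 39 members rose and 8 fell, where 13.0% of all probesets were called higher and 17.6% lower. The median difference over the members was 0.15, against 0.04 over all probesets, and the median size of the difference was 0.26 against 0.13. Against deficient LN cells 10 members rose (22.7%) and 5 fell (11.4%), where 5.98% of all probesets were called higher and 8.16% lower, and the median was 0.09 against 0.04. Both comparisons use the same 2 T arrays, so the second is no independent repeat. With T array 1 or T array 2 left out, fewer members rose over wildtype LN cells, and fewer of all probesets were called higher too.

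**Figure D1:**
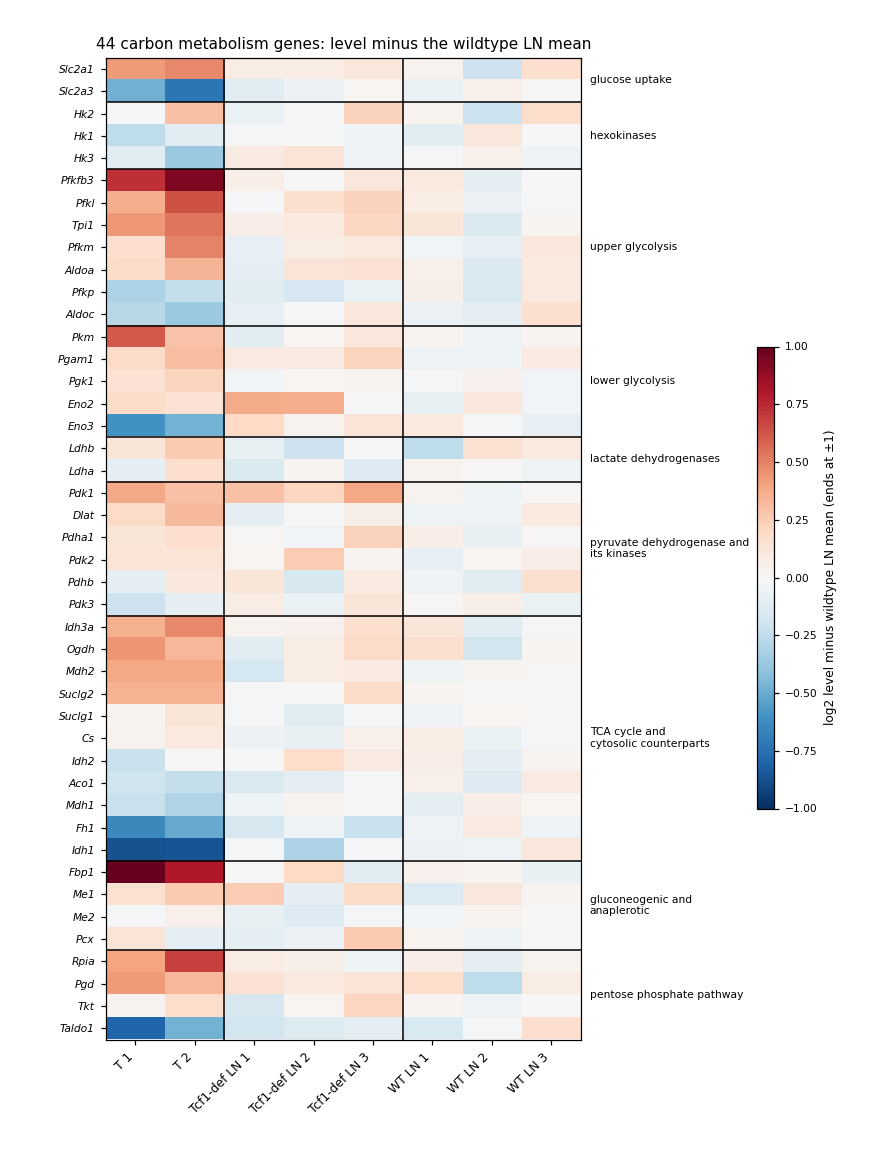
Heat map of the 44 members (rows, grouped by step) in each array (columns), coloured by log2 level minus the mean of the 3 wildtype LN arrays, with the colour scale ending at ±1. Pfkfb3 and Fbp1 are the deepest red in both T arrays and Idh1 the deepest blue across them, while the LN columns are paler, with Pdk1, Eno2 and Idh1 in some deficient arrays among their stronger cells.

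The promoters of the members with the largest rises (Fbp1, Pfkfb3) and falls (Idh1, Taldo1) are shown because these genes frame the change. Each runs from 250 bases before to 50 bases from the annotated start onward, on the gene's strand, from RefSeq on GRCm38.p6. Capitals mark ACGTG or its reverse complement CACGT, a form of the core of the hypoxia response element and called the core letters here. GCGTG, the other form of that core, was neither marked nor counted. It or its reverse complement CACGC occurs in the Idh1 and Taldo1 windows. The windows are chr13:62888233-62888532 (minus strand) for Fbp1, chr2:11553880-11554179 (minus) for Pfkfb3, chr1:65186430-65186729 (minus) for Idh1 and chr7:141391910-141392209 (plus) for Taldo1.
Fbp1: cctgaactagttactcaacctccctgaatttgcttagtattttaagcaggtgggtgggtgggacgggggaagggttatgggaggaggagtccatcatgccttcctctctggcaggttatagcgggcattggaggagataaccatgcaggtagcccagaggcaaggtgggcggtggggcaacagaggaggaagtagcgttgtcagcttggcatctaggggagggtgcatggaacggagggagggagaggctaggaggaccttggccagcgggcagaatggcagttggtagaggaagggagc
Pfkfb3: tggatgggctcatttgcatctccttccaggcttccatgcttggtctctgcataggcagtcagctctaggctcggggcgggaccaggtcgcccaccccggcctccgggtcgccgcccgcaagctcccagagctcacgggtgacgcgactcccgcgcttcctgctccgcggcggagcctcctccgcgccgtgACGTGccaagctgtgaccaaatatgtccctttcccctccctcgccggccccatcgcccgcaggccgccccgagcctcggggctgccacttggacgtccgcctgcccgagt
Idh1: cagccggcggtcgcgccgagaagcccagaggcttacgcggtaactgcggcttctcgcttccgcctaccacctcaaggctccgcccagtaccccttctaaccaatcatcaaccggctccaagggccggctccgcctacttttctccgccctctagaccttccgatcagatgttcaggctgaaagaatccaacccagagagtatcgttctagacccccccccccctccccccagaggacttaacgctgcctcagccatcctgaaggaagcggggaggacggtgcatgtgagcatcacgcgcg
Taldo1: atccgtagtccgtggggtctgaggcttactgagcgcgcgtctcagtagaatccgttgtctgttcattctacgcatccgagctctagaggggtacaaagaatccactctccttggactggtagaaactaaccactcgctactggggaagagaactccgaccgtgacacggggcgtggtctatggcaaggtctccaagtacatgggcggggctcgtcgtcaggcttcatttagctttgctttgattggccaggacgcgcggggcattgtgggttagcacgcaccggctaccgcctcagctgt
The Pfkfb3 window holds 1 run in capitals, 60 to 56 bases before the annotated start, and the other 3 windows hold no run in capitals. CACGTG, the E-box bound by the Myc family and by itself a match to both core motifs, is in none of the 4, although a second annotated start of Pfkfb3 (chr2:11502041-11502340) has it. The core letters were found in 43.5% of the 62 promoter windows of members and in 19.6% of all 32851 windows of the table, and CACGTG in 12.9% and 7.15%. The median GC content was 60.8% in the members' windows and 52.7% in all windows. By gene, 4 of the 12 members that rose and had a promoter in the table, 2 of the 6 that fell and 13 of the 23 that did not pass held the core letters at any start.

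Of the 2 glucose carriers, one rose and one fell. Slc2a1, the basal glucose transporter of most cells, stood at 8.20 and 8.26 in T cells, against 7.86, 7.86 and 7.90 in deficient LN cells and 7.82, 7.58 and 7.95 in wildtype LN cells. Both T arrays lay above all LN arrays, a rise of 0.45 (SE 0.10, adjusted p = 0.0108) over wildtype and 0.36 (SE 0.10, 0.0389) over deficient LN cells. Slc2a3, the high-affinity transporter, stood at 6.68 and 6.44 in T cells, against 7.05, 7.10 and 7.18 in deficient LN cells and 7.09, 7.21 and 7.17 in wildtype LN cells. It fell in T cells by 0.60 (SE 0.09, adjusted p = 0.00086) and 0.56 (0.00187), with no overlap between T and LN arrays. The call of Slc2a1 over wildtype LN cells was lost without T array 2 (adjusted p = 0.0712), and that over deficient cells without any 1 of the 3 deficient arrays, wildtype LN array 1 or either T array. The calls of Slc2a3 were kept in all 17 alternatives.

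The hexokinases, which trap glucose by phosphorylation, did not pass by their brightest probesets. Hk1, the housekeeping form, stood at 12.16 and 12.31 in T cells, against 12.39, 12.41 and 12.37 in deficient and 12.30, 12.53 and 12.41 in wildtype LN cells, a difference of -0.18 (adjusted p = 0.203). A second Hk1 probeset went the other way, at 9.04 and 8.80 in T cells against means of 8.19 ± 0.13 in deficient and 8.24 ± 0.21 in wildtype LN cells (SD, n = 3 each). That probeset rose by 0.68 (SE 0.13, adjusted p = 0.004) and 0.73 (0.00321), so the probesets assigned to Hk1 differ in direction. Hk1 lies on chromosome 10. By its number the second probeset sits between those of Cs and Pfkl on chromosome 10. The brightest sits between those of Tkt and Pdhb on chromosome 14, and whether it measures Hk1 was not tested. Hk2, the inducible form, differed by 0.15 (adjusted p = 0.515), and Hk3, a form of myeloid cells, by -0.24 (0.112).

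In upper glycolysis 3 of 7 members rose in T cells over wildtype LN cells and 1 fell. Among all probesets 7.66% were called higher and 10.4% lower. Pfkfb3 makes the sugar phosphate that activates phosphofructokinase. It stood at 9.42 and 9.62 in T cells, against 8.76, 8.69 and 8.81 in deficient LN cells and 8.79, 8.60 and 8.69 in wildtype LN cells. The rise of 0.83 (SE 0.09, 1.78-fold, adjusted p = 0.000101) over wildtype and 0.77 (SE 0.09, 0.000208) over deficient LN cells left no overlap between T and LN arrays, and both calls were kept in all 17 alternatives. Pfkl, the liver-type phosphofructokinase subunit, stood at 7.47 and 7.74 in T cells, against 7.09, 7.26 and 7.33 in deficient and 7.18, 7.05 and 7.09 in wildtype LN cells. It rose by 0.50 (SE 0.10, adjusted p = 0.0063) and 0.38 (0.0337). The other subunits did not pass. Pfkm, the muscle type, stood at 7.87 and 8.20 in T cells, against 7.62, 7.78 and 7.80 in deficient and 7.68, 7.62 and 7.81 in wildtype LN cells (0.33, adjusted p = 0.0614). Pfkp, the platelet type, stood at 9.41 and 9.48 in T cells, against 9.62, 9.56 and 9.65 in deficient and 9.78, 9.57 and 9.82 in wildtype LN cells (-0.28, 0.0597). The T arrays lay above the LN arrays for Pfkl and Pfkm and below them for Pfkp.

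Tpi1, the triose phosphate isomerase, stood at 10.93 and 11.03 in T cells, against 10.56, 10.59 and 10.70 in deficient and 10.61, 10.35 and 10.52 in wildtype LN cells. It rose by 0.49 (SE 0.09, adjusted p = 0.0042) and 0.36 (0.0249), with both T arrays on top. Of the aldolases, which split fructose bisphosphate, Aldoc stood at 6.89 and 6.79 in T cells, against 7.08, 7.14 and 7.27 in deficient and 7.10, 7.06 and 7.32 in wildtype LN cells. It fell by 0.32 (SE 0.10, adjusted p = 0.0452) relative to wildtype cells and did not pass against deficient cells (-0.32, 0.0525). Aldoa, the aldolase of most tissues, was at 11.03 and 11.19 in T cells, 10.76, 10.98 and 11.00 in deficient and 10.90, 10.71 and 10.95 in wildtype LN cells, and did not pass (0.26, adjusted p = 0.123). Without T array 2 the call of Pfkl was lost (adjusted p = 0.0726), and that of Aldoc was lost without any 1 of 5 arrays (the 2 T arrays, wildtype LN arrays 1 and 3 and deficient array 2). Against deficient cells Pfkl was lost without deficient array 1 or 2, wildtype LN array 3 or T array 2, and Tpi1 without deficient array 1 or 2 or either T array.

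Fbp1 reverses the phosphofructokinase step and is best known from liver and kidney. It stood at 7.32 and 6.45 in T cells, against 5.66, 5.85 and 5.54 in deficient LN cells and 5.69, 5.68 and 5.58 in wildtype LN cells. All its LN levels lay below the array medians of 6.85 to 6.91, and Fbp1 was among the 5 members in the dimmest 40% of probesets. Whether the LN levels stand above background was not tested, so the fold below holds for the deposited signals only. The T arrays lay above every LN array but apart from each other. The rise was 1.23 (SE 0.20, 2.35-fold, adjusted p = 0.00136) over wildtype and 1.20 (SE 0.20, 0.002) over deficient LN cells. Over wildtype LN cells it was 0.80 without T array 1 and 1.66 without T array 2 (adjusted p = 0.00225 and 1.46e-05). The other members that feed or drain pyruvate and malate did not pass: Pcx, the pyruvate carboxylase, differed by 0.02, and the malic enzymes Me1 and Me2 by 0.21 and 0.02 (adjusted p from 0.267 to 0.932).

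**Figure D2:**
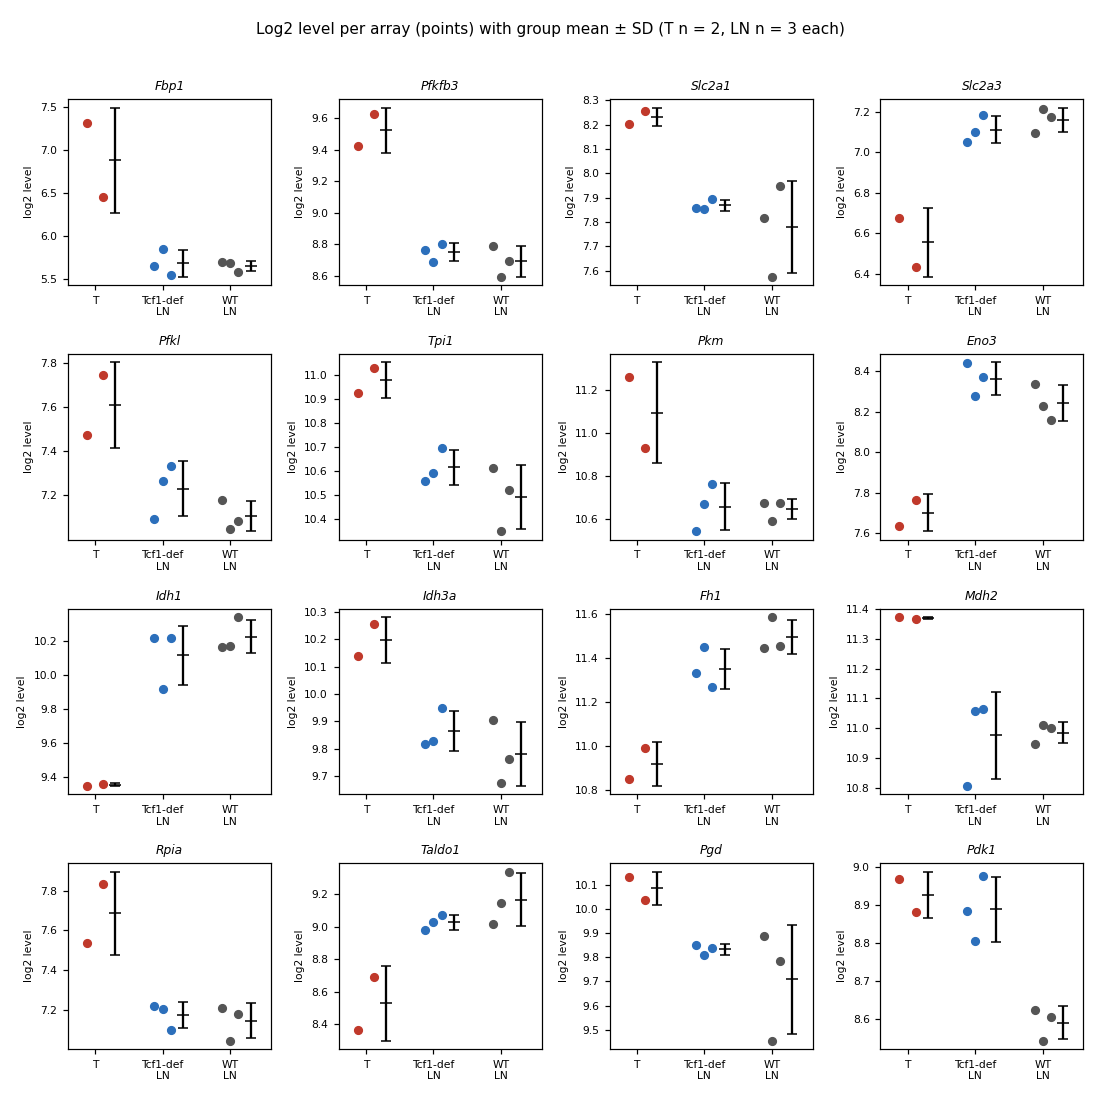
Log2 level (vertical axis, its range set for each gene) of 16 members in each array, as points for wildtype T cells (n = 2), Tcf1-deficient LN cells (n = 3) and wildtype LN cells (n = 3), with the group mean ± SD as a black bar beside them. The T points stand clear of both LN groups for 15 of the genes, above them for Fbp1 and below them for Idh1, and for Pdk1 the deficient LN points lie with the T points.

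Lower glycolysis turns triose phosphates into pyruvate. Pkm, the pyruvate kinase of non-liver cells, stood at 11.26 and 10.93 in T cells, against 10.54, 10.67 and 10.76 in deficient and 10.67, 10.59 and 10.67 in wildtype LN cells. It rose by 0.45 (SE 0.11, adjusted p = 0.0135) and 0.44 (0.019), with the T arrays on top. A second Pkm probeset rose over wildtype LN cells (0.42, adjusted p = 0.0187) and did not pass over deficient cells (0.29, 0.105). Eno3, an enolase known from muscle, stood at 7.64 and 7.77 in T cells, against 8.44, 8.28 and 8.37 in deficient and 8.34, 8.23 and 8.16 in wildtype LN cells. It fell by 0.54 (SE 0.09, adjusted p = 0.00137) and 0.66 (0.000459), and no T array reached an LN array. Eno2, an enolase known from neurons, was at 5.85 and 5.80 in T cells, 6.03, 6.02 and 5.66 in deficient and 5.59, 5.76 and 5.64 in wildtype LN cells, and did not pass (0.16, adjusted p = 0.392). Pgk1 differed by 0.18 (adjusted p = 0.111) and Pgam1 by 0.25 (0.0623), with both T arrays above the wildtype LN arrays. Pgk1 and Pgam1 each had 3 probesets, a pair of which held identical values, so they are not separate measurements. The call of Pkm was lost without T array 1 (adjusted p = 0.146), and against deficient cells also without deficient array 1. Eno3 was kept in all 17 alternatives.

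The lactate dehydrogenases, which interconvert pyruvate and lactate, did not pass. Ldha stood at 10.71 and 10.98 in T cells, against 10.66, 10.84 and 10.68 in deficient and 10.84, 10.83 and 10.77 in wildtype LN cells (0.03, SE 0.10, adjusted p = 0.864). Ldhb stood at 7.44 and 7.58 in T cells, against 7.25, 7.11 and 7.32 in deficient and 7.07, 7.47 and 7.42 in wildtype LN cells (0.19, SE 0.12, 0.342). For Ldha the T arrays lay one below and one above the wildtype LN arrays, and for the brightest Ldhb probeset T array 1 lay among them. A second Ldhb probeset did not pass either (0.26, SE 0.14, adjusted p = 0.248), with both T arrays above the wildtype LN arrays. Its difference of deficient from wildtype LN cells was 0.07, against -0.10 for the brightest, and neither passed.

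At the pyruvate dehydrogenase step 1 of 6 members rose in T cells over wildtype LN cells, where 7.66% of all probesets were called higher. None passed over deficient LN cells at an adjusted p under 0.05, where 5.98% of all probesets were called higher and 8.16% lower. Pdk1, a kinase that switches pyruvate dehydrogenase off, stood at 8.97 and 8.88 in T cells, against 8.88, 8.80 and 8.98 in deficient and 8.62, 8.54 and 8.60 in wildtype LN cells. It rose over wildtype LN cells by 0.34 (SE 0.08, adjusted p = 0.0139), which was lost without T array 1 (0.107), and differed from deficient LN cells by 0.04 (0.82). For this gene the deficient arrays overlapped the T arrays and lay above the wildtype LN arrays. The kinases Pdk2 (0.13, adjusted p = 0.392) and Pdk3 (-0.15, 0.286) did not pass. Pdk2 was at 6.37 and 6.36 in T cells, 6.26, 6.49 and 6.27 in deficient and 6.15, 6.26 and 6.30 in wildtype LN cells. Pdk3 was at 9.65 and 9.76 in T cells, 9.93, 9.79 and 9.98 in deficient and 9.87, 9.92 and 9.79 in wildtype LN cells. Of the enzyme's own subunits, Pdha1 differed by 0.15 (adjusted p = 0.337), Pdhb by 0.01 (0.977) and Dlat by 0.26 (0.0661).

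In the TCA cycle and its cytosolic counterparts 4 of 11 members rose in T cells over wildtype LN cells and 3 fell. The shares of all probesets were 7.66% called higher and 10.4% lower. The members that rose, Idh3a, Ogdh, Suclg2 and Mdh2, encode mitochondrial enzymes. Idh1 and Mdh1, which fell, encode the cytosolic isocitrate and malate dehydrogenases, and Fh1, which also fell, encodes fumarase, found in both compartments. Idh1 stood at 9.35 and 9.36 in T cells, against 10.21, 9.92 and 10.22 in deficient and 10.16, 10.17 and 10.34 in wildtype LN cells. The fall was 0.87 (SE 0.10, 1.82-fold lower, adjusted p = 0.000192) relative to wildtype and 0.76 (SE 0.10, 0.000633) relative to deficient LN cells, with a wide gap between the groups. Fh1 stood at 10.85 and 10.99 in T cells, against 11.34, 11.45 and 11.27 in deficient and 11.45, 11.59 and 11.45 in wildtype LN cells. It fell by 0.58 (SE 0.09, adjusted p = 0.000981) and 0.43 (0.00727).

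Mdh1 stood at 10.82 and 10.75 in T cells, against 11.01, 11.08 and 11.04 in deficient and 10.96, 11.12 and 11.07 in wildtype LN cells, and fell relative to wildtype cells by 0.26 (SE 0.08, adjusted p = 0.0421). Mdh2, the mitochondrial form, stood at 11.37 in both T arrays, against 10.81, 11.06 and 11.06 in deficient and 10.95, 11.01 and 11.00 in wildtype LN cells, and rose by 0.39 (SE 0.09, adjusted p = 0.0133) and 0.39 (0.0145). For both genes the T arrays lay outside the range of the LN arrays, below it for Mdh1 and above it for Mdh2. Idh3a, the catalytic subunit of the NAD-dependent isocitrate dehydrogenase, stood at 10.14 and 10.26 in T cells, against 9.82, 9.83 and 9.95 in deficient and 9.90, 9.67 and 9.76 in wildtype LN cells (0.42, SE 0.09, adjusted p = 0.00829, and 0.33, 0.0317). Suclg2, a subunit of succinate CoA ligase, stood at 10.16 and 10.15 in T cells, against 9.80, 9.80 and 9.99 in deficient and 9.83, 9.80 and 9.79 in wildtype LN cells (0.35, SE 0.08, 0.0124, and 0.29, 0.0367). A second Suclg2 probeset rose alike (0.36, adjusted p = 0.00864). Ogdh, the first subunit of the oxoglutarate dehydrogenase complex, stood at 9.74 and 9.63 in T cells, against 9.19, 9.38 and 9.49 in deficient and 9.46, 9.12 and 9.33 in wildtype LN cells (0.39, SE 0.12, adjusted p = 0.0415, and 0.33, 0.0853). For each of the 3 the T arrays lay above all LN arrays.

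Cs (0.07), Idh2 (-0.11), Suclg1 (0.07) and Aco1 (-0.22), the citrate synthase, the mitochondrial NADP-dependent isocitrate dehydrogenase, the other ligase subunit and the cytosolic aconitase, did not pass (adjusted p from 0.117 to 0.636). The calls of Idh1 were kept in all 17 alternatives, and that of Fh1 over wildtype cells too, while Fh1 against deficient cells was lost without T array 1 (adjusted p = 0.0749). Idh3a over wildtype cells was lost without T array 2 (0.0749), and Mdh2 and Suclg2 without either T array (0.0693 and 0.0657 for Mdh2, 0.0682 and 0.0628 for Suclg2). Ogdh was lost without wildtype LN array 2 or 3, deficient array 2 or either T array, and Mdh1 without wildtype LN array 2 or 3, deficient array 3 or either T array. Against deficient cells Mdh2 was also lost without either T array, Idh3a without deficient array 1 or 2 or either T array, and Suclg2 without any 1 of 7 arrays (all but deficient array 3).

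In the pentose phosphate pathway 2 of 4 members rose over wildtype LN cells and 1 fell, where 7.66% of all probesets were called higher and 10.4% lower. Rpia, which makes ribose phosphate in the non-oxidative part, stood at 7.54 and 7.83 in T cells, against 7.22, 7.21 and 7.10 in deficient and 7.21, 7.05 and 7.18 in wildtype LN cells. It rose by 0.54 (SE 0.10, adjusted p = 0.00341) and 0.51 (0.0059), above every LN array. Taldo1, the transaldolase that links that part back to glycolysis, stood at 8.37 and 8.69 in T cells, against 8.98, 9.03 and 9.07 in deficient and 9.01, 9.15 and 9.34 in wildtype LN cells. It fell by 0.64 (SE 0.12, adjusted p = 0.003) and 0.50 (0.0155), below every LN array. Pgd, the phosphogluconate dehydrogenase of the oxidative part, stood at 10.13 and 10.04 in T cells, against 9.85, 9.81 and 9.84 in deficient and 9.89, 9.46 and 9.78 in wildtype LN cells. Its rise of 0.38 (SE 0.11, adjusted p = 0.0444) over wildtype cells was not matched by a call over deficient cells (0.25, 0.192) and was lost without any 1 of 7 arrays (all but wildtype LN array 1). Tkt, the transketolase, differed by 0.10 (adjusted p = 0.582). Against deficient cells the call of Rpia was lost without T array 2 (0.0647) and that of Taldo1 without T array 1 (0.154), and over wildtype cells both were kept in all 17 alternatives.

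**Figure D3:**
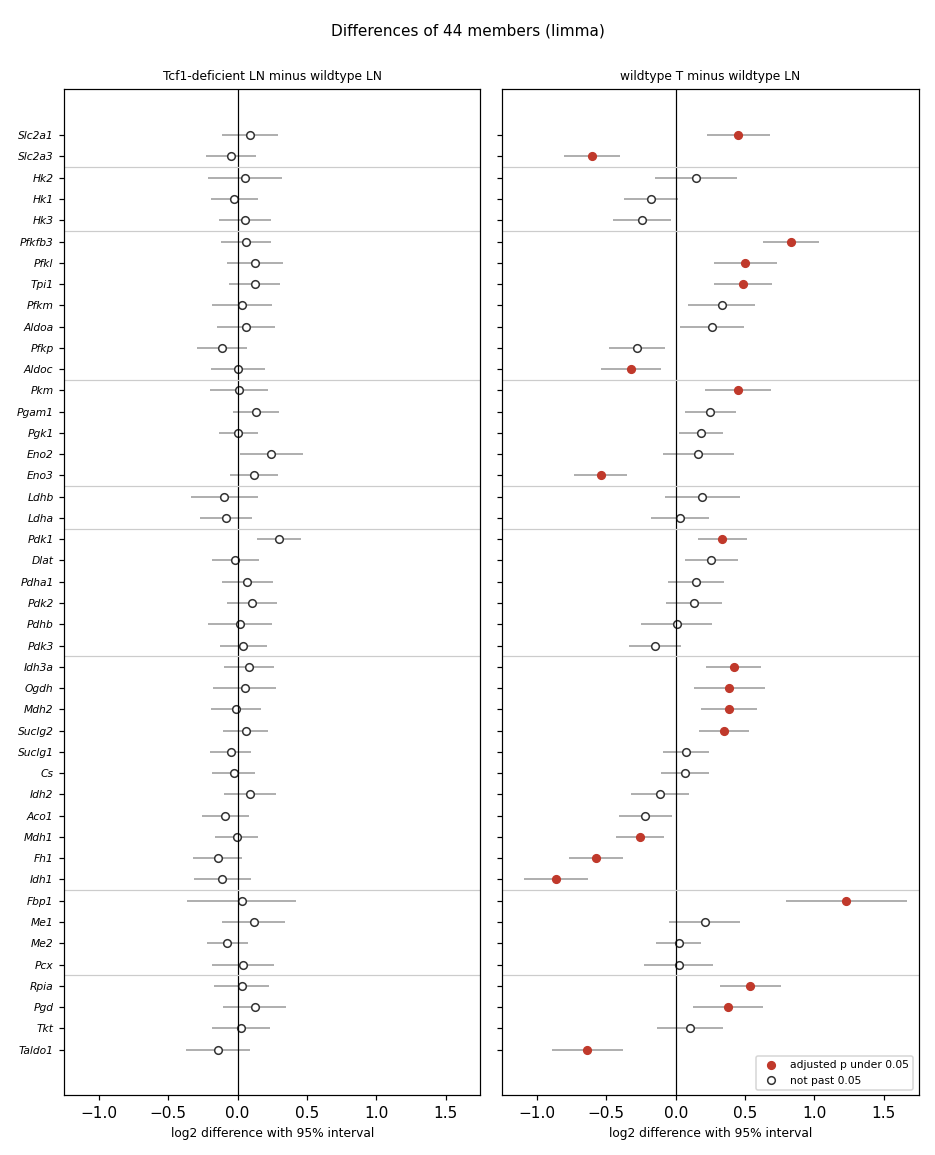
Log2 difference (horizontal axis) of each of the 44 members (rows, grouped by step) with its 95% interval, for Tcf1-deficient minus wildtype LN cells on the left and wildtype T minus wildtype LN cells on the right. Filled red points passed an adjusted p of 0.05. None is filled on the left, where every interval lies within 0.5 log2 units of 0, and 20 are filled on the right.

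The comparison of Tcf1-deficient with wildtype LN cells covers cells outside the T lineage gate, with the dendritic and myeloid marker signal given above. Whether they are a stage before T cells was not tested. No member passed in it: 0 rose and 0 fell of 44, where 0.00459% of all probesets (1 of 21789, that of Il2ra, a gene of the gate) were called. At an unadjusted p under 0.05 limma gave 2 members (Pdk1 and Eno2), where 4.92% of all probesets reached that level. Differences ran from -0.14 (Fh1) to 0.30 (Pdk1), with a median of 0.03 against -0.01 over all probesets. The 95% intervals of all 44 members lay between -0.37 and 0.47, each taken singly and with no adjustment for their number, so a change of the size seen for Fbp1, Pfkfb3 or Idh1 in T cells lies outside each of them.

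Pdk1 had the smallest p of the members. Its levels were 8.88, 8.80 and 8.98 in deficient and 8.62, 8.54 and 8.60 in wildtype LN cells, so the groups did not overlap, and the difference was 0.30 (SE 0.07, unadjusted p = 0.00169, adjusted p = 0.583). Eno2 was at 6.03, 6.02 and 5.66 in deficient and 5.59, 5.76 and 5.64 in wildtype LN cells (0.24, SE 0.10, unadjusted p = 0.0387, adjusted p = 0.979), with deficient array 3 inside the wildtype range. Fh1 (-0.14), Pgam1 (0.13) and Eno3 (0.12) came next, with unadjusted p of 0.0952, 0.102 and 0.15. Pgam1 was at 9.12 to 9.25 in deficient and 8.99 to 9.11 in wildtype LN cells, a narrow gap with no overlap. In all 2 of 44 members had deficient arrays wholly above the wildtype ones and 0 wholly below, where 3.93% and 6.01% of all probesets did.

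A companion list held other enzymes and carriers of the same pathways. Of its 58 measured genes 3 rose and 3 fell in T cells relative to wildtype LN cells (10.3%), where 7.66% of all probesets were called higher and 10.4% lower, with a median of 0.09 against 0.04 over all probesets. The share called thus lay below that of all probesets. Pgm1, a phosphoglucomutase that links glycogen and glycolysis, stood at 8.44 and 8.03 in T cells, against 7.10, 7.32 and 7.37 in deficient and 7.24, 7.45 and 7.45 in wildtype LN cells (0.86, SE 0.13, adjusted p = 0.00095). Mpc1, a subunit of the mitochondrial pyruvate carrier, stood at 8.46 and 8.43 in T cells, against means of 8.93 ± 0.08 in deficient and 9.18 ± 0.16 in wildtype LN cells (SD, n = 3 each) (-0.73, SE 0.10, 0.000408). Got2, the mitochondrial aspartate aminotransferase, rose by 0.48 (adjusted p = 0.0158) and Slc25a11, the oxoglutarate carrier, fell by 0.42 (0.0173). Pfkfb2, an isozyme of Pfkfb3 named here after its values were seen, stood at 7.69 and 7.67 in T cells, against 8.13, 7.75 and 7.97 in deficient and 8.05, 8.03 and 7.96 in wildtype LN cells. It fell by 0.34 (SE 0.10, adjusted p = 0.0466) relative to wildtype LN cells, opposite to Pfkfb3, and did not pass against deficient cells (-0.27, 0.116). Pfkfb4, a further isozyme named on the same ground, did not pass (-0.18, adjusted p = 0.165). Against deficient LN cells 3 of the 58 rose and 1 fell, where 5.98% of all probesets were called higher and 8.16% lower, and between the LN genotypes 0 passed.

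Of 35 measured regulators of these pathways 6 rose and 5 fell in T cells relative to wildtype LN cells (31.4%), where 7.66% of all probesets were called higher and 10.4% lower, with a median of 0.06 against 0.04 over all probesets. Mycn, a Myc family factor, stood at 8.28 and 8.38 in T cells, against 6.91, 7.39 and 7.59 in deficient and 7.21, 7.19 and 7.31 in wildtype LN cells (1.09, SE 0.16, adjusted p = 0.00072). Egln3, an oxygen sensor that marks HIF for destruction and is itself induced by HIF, rose by 0.75 (SE 0.11, 0.000963). Cebpa, a myeloid transcription factor, fell by 0.77 (SE 0.11, 0.000538), beside the fall of the myeloid markers, and Akt1, a growth factor signalling kinase, rose by 0.58 (0.012). Against deficient LN cells 2 regulators rose and 3 fell, where 5.98% of all probesets were called higher and 8.16% lower, and between the LN genotypes 0 passed.

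**Figure D4:**
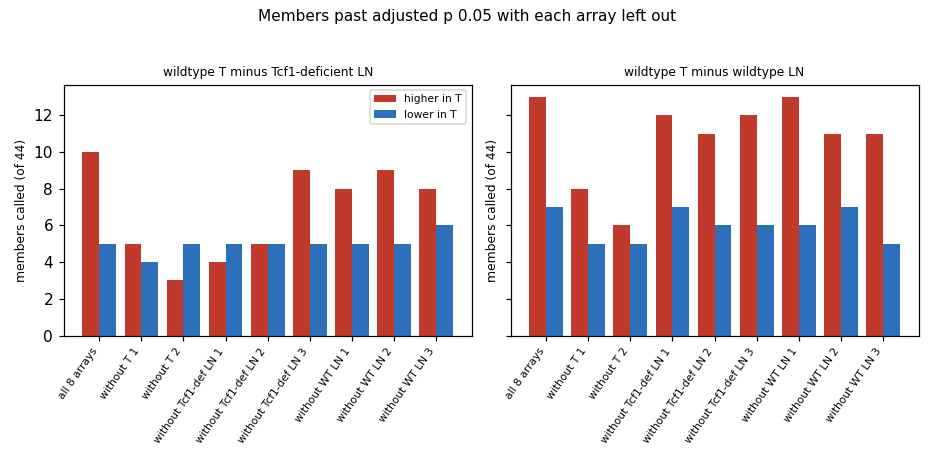
Number of the 44 members called (vertical axis) with all 8 arrays and with each array left out in turn, higher in T cells in red and lower in blue, for T minus deficient LN cells on the left and T minus wildtype LN cells on the right. The rises are fewest without T array 2, against 10 and 13 with all arrays, while the falls vary less. Fewer of all probesets were also called in both comparisons with a T array left out.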

How the data were processed

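Total RNA (10 ng per sample, per the labels' protocols) was amplified with a NuGEN kit, labelled with biotin and hybridised to 1-colour arrays. The authors deposited 1 log2 value per probeset and array, made with RMA in Partek 6.5, per the submitters' processing notes, and no further normalization was applied here. Array medians lay between 6.85 and 6.91. Scan dates and slides were not used here, the precision is limited by the number of arrays, and the Tcf7 level was not analysed here.

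Of 35399 probesets, 21789 had exactly 1 gene in the platform annotation, 1621 had several and 11989 had none, and 21698 of the 21789 matched a RefSeq gene. A gene with several probesets was described by the brightest over the 8 arrays. Probeset numbers of the members ran in blocks by chromosome. For Hk1, Suclg2, Ldhb, Me1 and Pgk1 the number of the brightest lay apart from the block of the gene's chromosome. Whether these probesets measure the named gene was not tested. The 3 groups were fitted together with limma 3.58.1 (R 4.3.3, lmFit and eBayes, two-sided), with Benjamini-Hochberg adjustment over the 21789, and the script was tested on simulated data. Lists were described by counts and medians with no set test.

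The members and lists were chosen with earlier results of these data known. Values in every array are given for members called in T minus wildtype LN cells, for isozyme families with a called member, and for the 5 members of smallest p between the LN genotypes, and up to 4 called genes are named of each other list. Pgam1 is given by its range, and the lactate dehydrogenases and hexokinases, families with no called member by the brightest probeset, are given beyond that rule. Alternatives were array centring, a second quantile normalization, a filter on the dimmest 40%, the prior variance, probeset averaging, all probesets, array weights, only the groups compared, a replicate block and each array left out. Protein sequences were not used here.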

Additional observations from a re-analysis of the deposited data

How the results depend on the processing

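No called member changed sign in any of the 17 alternatives. Hk1, not called by its brightest probeset, turned to 0.25 (adjusted p = 0.0454) over wildtype and 0.29 (0.0289) over deficient LN cells in the limma fit on the mean of its probesets. Of the 20 calls of T against wildtype LN cells 9 were kept in every alternative run (Fbp1 was not among the probesets tested without the dimmest 40%), and of the 15 against deficient LN cells 5. Leaving out 1 array gave 6 to 13 members higher and 5 to 7 lower than in wildtype LN cells, and 3 to 9 higher and 4 to 6 lower than in deficient LN cells, and 0 between the LN genotypes. Against deficient cells the members higher in T cells numbered 6 with array weights, where 1188 of 21789 probesets were called higher. They numbered 4 with all 35399 probesets tested, of which 884 were called higher. The members lower numbered 8 without the dimmest 40%, where 1833 of 13073 probesets were called lower. Leaving out 1 LN array gave 1170 to 1721 probesets higher and 1771 to 2323 lower than in wildtype LN cells. Against deficient cells it gave 816 to 1362 higher and 1451 to 1721 lower. With a T array left out, fewer of all probesets were called in both T comparisons. The losses of single calls listed above are those of left-out arrays only. Over wildtype LN cells Aldoc, Mdh1 and Pgd were also lost with only the groups compared, and these and Ogdh with all probesets. Against deficient cells Suclg2 was also lost with the replicate block, only the groups compared, array centring, array weights and all probesets. A second quantile normalization gave 2233 probesets higher and 2085 lower in T than wildtype LN cells, against 1670 and 2258 with the deposited values, and 1714 and 1783 against deficient cells, where the deposited values gave 1302 and 1779.

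Deviations of same-numbered arrays correlated by 0.16 and 0.12 between T and wildtype LN cells, where different-numbered arrays gave -0.16 to 0.02. Between T and deficient LN cells they correlated by -0.14 and -0.25, against -0.14 to 0.25 for different numbers. Between the LN genotypes the values were -0.13, 0.02 and 0.04, against -0.11 to 0.08. With 2 T arrays the deviations of one mirror those of the other. These values therefore cannot decide whether the replicate numbers pair T with LN samples. With the replicate block 16 members were higher and 5 lower in T than wildtype LN cells, 8 and 5 against deficient LN cells, and 0 between the LN genotypes. Of all 21789 probesets the block gave 1480 higher and 1987 lower in T than wildtype LN cells. Against deficient LN cells it gave 1148 and 1532, and between the LN genotypes 0. With 2 T arrays, each T value rests on a pair of measurements.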
